A study of Mus musculus with 8 samples.

Results

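The loci of 8 genes that maintain spermatogonial stem cells (Gfra1, Ret, Etv5, Bcl6b, Id4, Lhx1, Zbtb16 and Nanos2) were followed in peak lists of H3K4me3 and H3K27me3. Members were all listed peaks that overlapped fixed mm9 intervals around these genes, 745 kb in all. They numbered 83 of the 233295 peaks in the 8 lists, all of them H3K4me3 peaks and 0 of them H3K27me3 peaks. The samples were germline stem (GS) cells, which are spermatogonial stem cells propagated in culture, kept for about 60 months (60M) or about 5 months (5M). Each mark and age had 2 libraries. All cells were labelled wild type and came from testes of Green mice with a DBA/2 background. Both ages thus carried the same EGFP transgene, which the labels write as C57BL/6 Tg14(act-EGFP)OsbY01. All were grown with human FGF2 at 10 ng/ml, rat GDNF at 15 ng/ml and 1% fetal bovine serum. The labels name no culture or animal behind a library, so replicate spread may be purely technical, and whether both ages stem from 1 culture line is not stated. By its title the series concerns Wnt7b-Jnk signalling in aging stem cells, and the comparison here asks whether the chromatin of the self-renewal genes differed after long culture.

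Spermatogonial stem cells depend on GDNF, which Sertoli and other somatic cells of the testis secrete. GDNF binds the GPI-anchored co-receptor GFRA1, and the pair activates the receptor tyrosine kinase RET. Signalling raises the expression of transcription regulators, among them Etv5, Bcl6b, Lhx1 and Id4, while the repressor ZBTB16 (also called PLZF) and the RNA-binding protein NANOS2 hold the cells back from differentiation. H3K4me3 marks active or poised promoters, mostly those rich in CG dinucleotides, and H3K27me3 is laid down by Polycomb repressive complex 2 at silenced developmental genes.

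The promoters of these genes differed in CG content, as far as RefSeq gave them (GRCm38.p6, 6 promoters of 5 of the 8 genes). The 250 bases before the start are shown for a receptor (Gfra1), for the gene with the tallest peak in every H3K4me3 library (Id4), for the gene with the widest tall peak (Lhx1) and for the promoter with the fewest CG dinucleotides (Nanos2). Capitals mark CG dinucleotides and the letters TATAA.
Gfra1, chr19:58455399-58455648, minus strand: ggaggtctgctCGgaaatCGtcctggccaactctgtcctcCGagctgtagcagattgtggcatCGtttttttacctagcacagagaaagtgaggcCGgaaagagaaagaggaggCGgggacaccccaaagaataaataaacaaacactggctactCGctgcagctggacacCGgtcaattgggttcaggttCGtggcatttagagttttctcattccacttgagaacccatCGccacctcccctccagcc
Id4, chr13:48260866-48261115, plus strand: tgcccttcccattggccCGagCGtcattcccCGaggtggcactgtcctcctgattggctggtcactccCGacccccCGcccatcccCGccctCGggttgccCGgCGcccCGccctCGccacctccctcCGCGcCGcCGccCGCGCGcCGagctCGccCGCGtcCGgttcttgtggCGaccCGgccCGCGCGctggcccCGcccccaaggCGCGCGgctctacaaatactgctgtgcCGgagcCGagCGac
Lhx1, chr11:84525535-84525784, minus strand: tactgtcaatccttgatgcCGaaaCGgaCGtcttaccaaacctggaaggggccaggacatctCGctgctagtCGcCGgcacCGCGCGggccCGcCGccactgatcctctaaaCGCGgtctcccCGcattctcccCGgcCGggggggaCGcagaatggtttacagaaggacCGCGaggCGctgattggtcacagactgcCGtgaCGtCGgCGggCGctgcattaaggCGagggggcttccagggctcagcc
Nanos2, chr7:18987274-18987523, plus strand: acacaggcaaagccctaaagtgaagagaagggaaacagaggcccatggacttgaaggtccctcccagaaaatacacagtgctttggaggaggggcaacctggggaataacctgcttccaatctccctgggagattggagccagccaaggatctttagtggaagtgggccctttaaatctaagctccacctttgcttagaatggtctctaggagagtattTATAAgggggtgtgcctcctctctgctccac

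The Id4 promoter held 35 CG dinucleotides, more than 97.0% of the 32851 RefSeq promoters of that length. The Lhx1 promoter held 26 and the Gfra1 promoter 10, against a median of 6 over all promoters. Etv5 had 2 listed starts, with 27 and 18 CG dinucleotides. The Nanos2 promoter held 0, as did 7.87% of all promoters, and it was the only one of the 6 with TATAA on either strand, which 22.8% of all promoters hold. The letters CCAAT, searched on both strands, occurred in all 6, against 33.8% of all promoters. These matches describe letters in a window and are not shown to be binding sites. The sequences are from another build than the peaks, so no peak was laid over them base by base, and Ret, Bcl6b and Zbtb16 are named only.

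**Figure D1:**
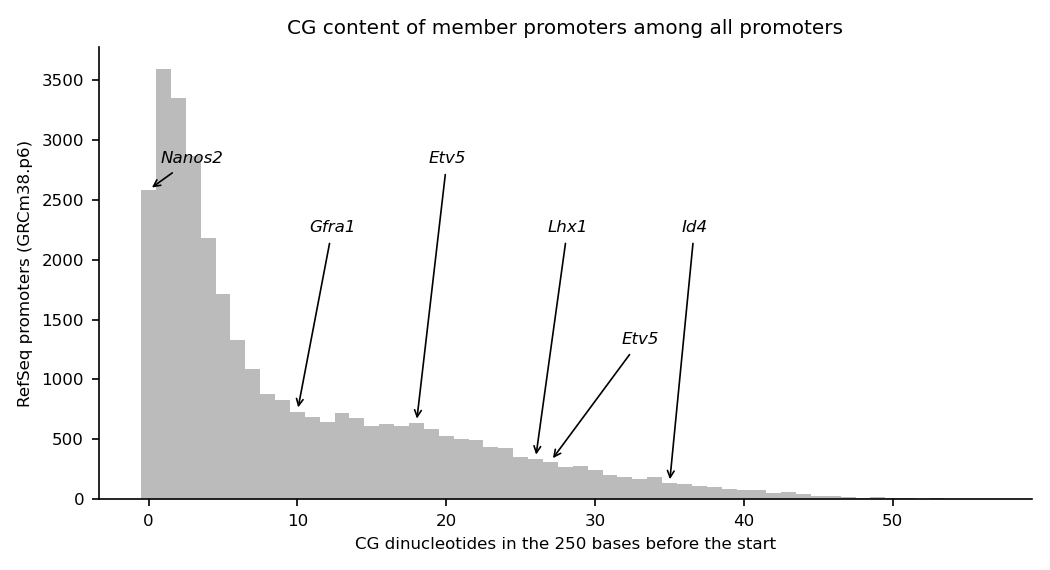
Number of RefSeq promoters (vertical axis) by the count of CG dinucleotides in the 250 bases before the start (horizontal axis). Arrows point to the 6 promoters of 5 genes, with Nanos2 at 0, Gfra1 at 10, the 2 Etv5 starts at 18 and 27, Lhx1 at 26 and Id4 at 35.

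The 4 H3K4me3 lists held 43699 and 41637 peaks at 60M, against 45933 and 47415 at 5M, and the 4 H3K27me3 lists held 14940 and 13037 at 60M, against 12002 and 14632 at 5M. The lists give no read totals, so depth is unknown. Each peak has a maximum immunoprecipitation signal, the authors' value, used here to rank peaks within 1 list. A percentile near 100 means one of the tallest peaks of that library. No source used here says how the signal was scaled between libraries, and the lists differ in length, so neither signals nor percentiles are read as a change with age. A peak that is missing was not listed, which does not show that the mark was absent.

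H3K4me3 was listed at all 8 loci in all 4 libraries, and the tallest peak of each locus stood in the upper part of the list. At 6 loci the tallest peak lay above the 95th percentile in every library, at Etv5 it lay between the 91.1 and 95.0 percentiles, and at Bcl6b between 88.3 and 91.4. That Bcl6b peak met its interval by 1 base, and the next tallest there lay between 83.2 and 88.8. Ranked by the −log10 p of the immunoprecipitate instead, 3 loci (Gfra1, Ret and Id4) stood above the 95th percentile in every library. Of the 17 regions at the loci that all 4 libraries listed, 9 covered at least 4 kb in every library. Each of the 8 loci held such a region, and Bcl6b held 2. Of these 2, 1 met the interval by 1 base. The other reached 4 kb as separate peaks of 3 kb and 1 kb in all libraries but 60M library 2. Among all H3K4me3 regions shared by the 4 libraries, 10.0% had this width. The intervals were drawn around genes, so no enrichment is read from these widths. A locus was entered through its tallest peak, so these positions describe the loci and carry no test. The 8 genes define the members, so their peaks are no check of the labelled cell type. No other marker list was examined, since no annotation of the peaks' build was used.

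The tallest peaks of the GDNF receptors had the same borders at both ages. At Gfra1, which encodes the GDNF co-receptor, the tallest peak spanned 5 kb (chr19:58527000-58531999, mm9) in every library. Its signal maximum was 734.4 and 655.1 in the 60M libraries, against 741.9 and 716.5 in the 5M libraries, and its percentile 98.5 and 97.8 at 60M, against 98.0 and 98.8 at 5M. At Ret, the signalling receptor, the tallest peak spanned 4 kb (chr6:118145000-118148999), with maxima of 708.2 and 631.6 at 60M and 752.0 and 706.6 at 5M. These lay at percentiles 97.4 and 96.5 at 60M and 98.3 and 98.4 at 5M, again with 1 set of borders. A weak peak of 2 kb beside it (chr6:118139000-118140999) was also listed in all 4 libraries, at percentiles 15.4 and 14.3 at 60M and 19.4 and 22.8 at 5M.

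Among the transcription regulators, Id4, an inhibitor of helix-loop-helix factors that marks the most primitive spermatogonia, had the tallest peak of the 8 loci in every library. Its peak of 4 kb (chr13:48355000-48358999) reached 757.0 and 668.6 at 60M, against 759.5 and 732.1 at 5M. It ranked 343rd and 611th of its list at 60M and 634th and 347th at 5M, in lists of different length, so the ranks of the 2 ages overlapped. Lhx1, a LIM-homeodomain factor induced by GDNF, had the widest tall peak, 6 kb in every library (chr11:84335000-84340999), with maxima of 693.2 and 623.7 at 60M and 712.2 and 661.4 at 5M. A second Lhx1 peak of 2 kb (chr11:84326000-84327999) was listed in all 4 libraries, at percentiles 73.1 and 70.6 at 60M and 75.8 and 76.7 at 5M. Etv5, an ETS factor needed for stem cell self-renewal, had a 5 kb peak with 1 set of borders (chr16:22437000-22441999). Its maxima were 656.4 and 567.6 at 60M and 682.0 and 627.9 at 5M, at percentiles 94.6 and 91.1 at 60M and 95.0 and 94.3 at 5M.

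Bcl6b, a BTB zinc finger repressor downstream of GDNF, lies among closely packed genes, with Slc16a13 and 0610010K14Rik as its protein-coding neighbours in RefSeq, and its interval held 3 regions in all 4 libraries. The tallest (chr11:70050000-70054999) met the interval by a single base at its border and reached 575.6 and 542.8 at 60M and 626.8 and 577.0 at 5M. The next (chr11:70033000-70035999) reached 528.7 and 493.9 at 60M and 583.6 and 555.2 at 5M. The middle region (chr11:70042000-70046999) had 4 and 5 kb covered in the 60M libraries and 4 kb in each 5M library. Its maxima were 411.3 and 352.5 at 60M and 490.2 and 427.5 at 5M. In 60M library 2 it was listed as 1 peak, and in the other 3 libraries as 2 peaks with a gap of 1 bin. Its outer borders were the same in all 4 libraries. Without an annotation of the build, none of the 3 is assigned to Bcl6b rather than to a neighbour.

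Zbtb16, the gene for PLZF, had a 5 kb tall peak with the same borders at both ages (chr9:48642000-48646999). It reached 683.4 and 614.8 at 60M and 697.9 and 671.3 at 5M, at percentiles 96.2 and 95.3 at 60M and 96.0 and 96.8 at 5M. Nanos2, which encodes an RNA-binding repressor of differentiation, had 1 region in its 20 kb interval (chr7:19575000-19578999). It reached 710.3 and 659.5 at 60M and 724.5 and 695.0 at 5M, and spanned 4 kb in every library. Nova2 and Mypop are the protein-coding neighbours of Nanos2 in RefSeq, and this peak is not assigned to Nanos2 rather than to a neighbour. Ranked instead by the −log10 p of the immunoprecipitate, it stood at percentiles 75.5 and 72.4 at 60M and 79.1 and 78.6 at 5M, where the other measure put it above 97 in each library (97.5 and 98.1 at 60M, 97.2 and 97.9 at 5M).

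**Figure D2:**
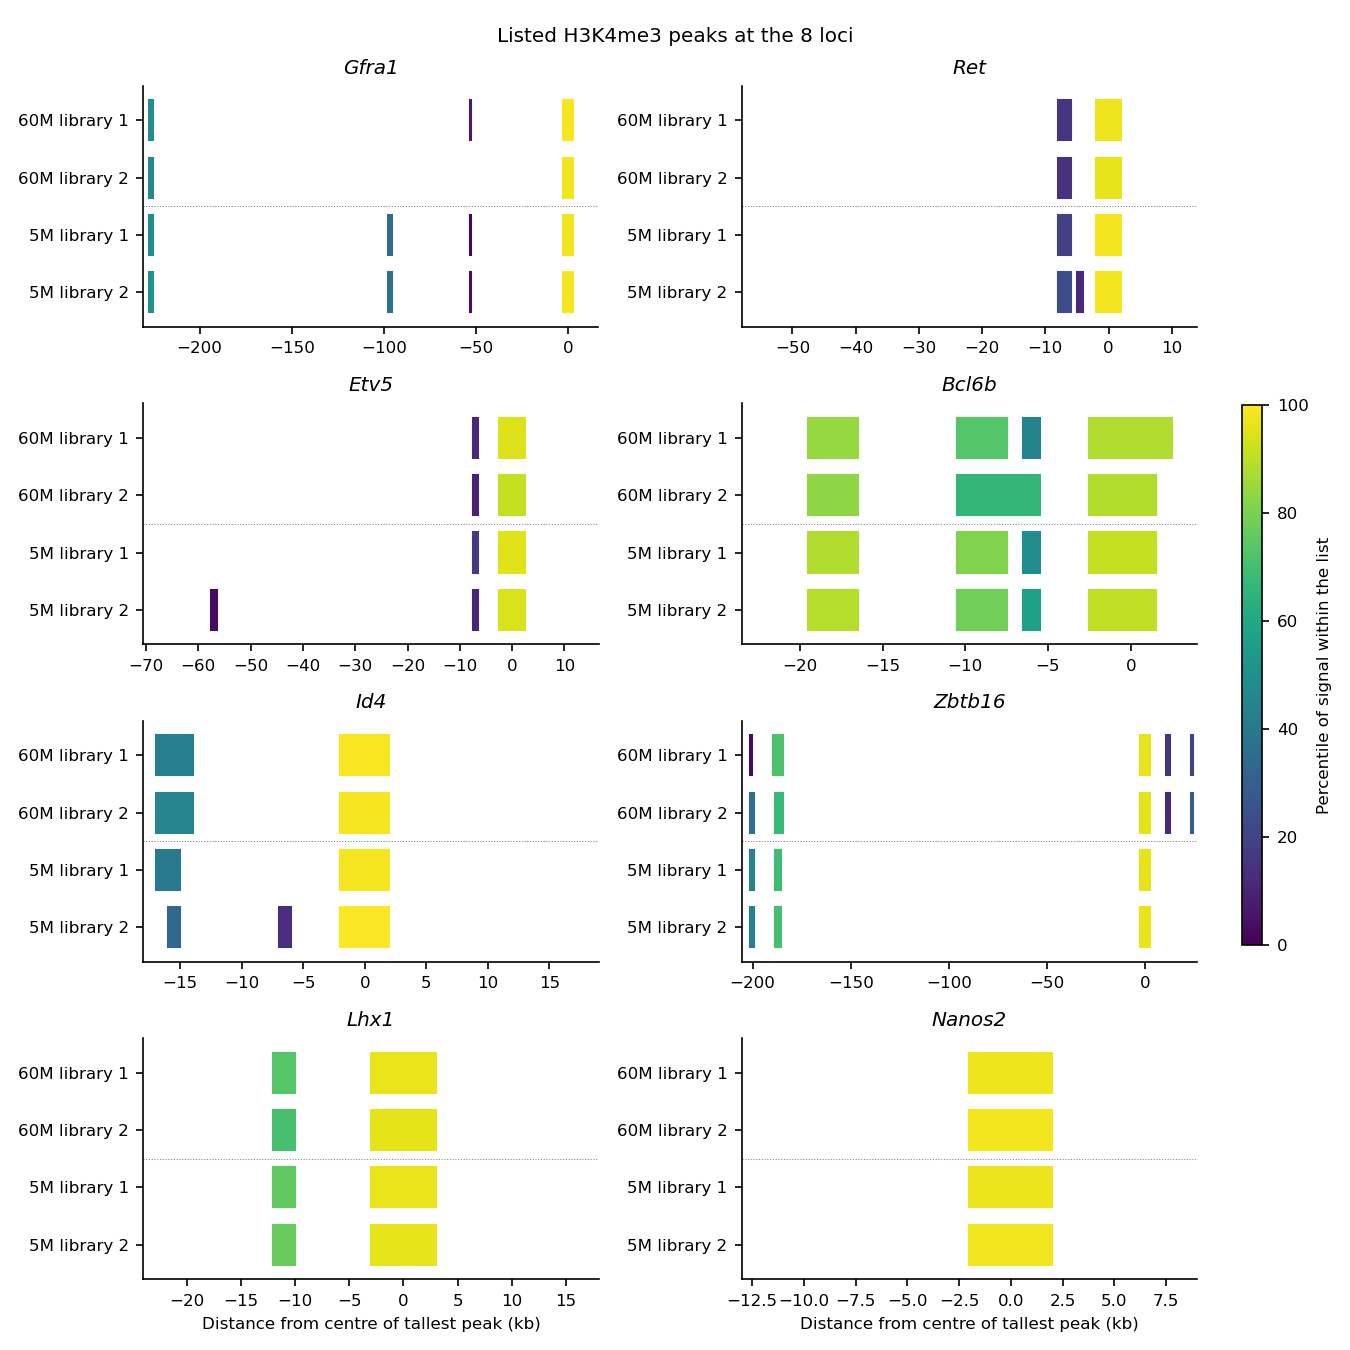
Listed H3K4me3 peaks at each locus, as bars over the distance in kb from the centre of the locus's tallest peak (horizontal axis), with 60M libraries above 5M libraries and colour for the percentile of signal within the list. The tall peaks line up in all 4 libraries, Zbtb16 has 2 further weak peaks in both 60M libraries, and Gfra1 has 1 in both 5M libraries. The Bcl6b panel is centred on the peak that meets its interval by a single base.

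At 7 of the 8 loci the tallest peak had the same borders in all 4 libraries, Bcl6b being the exception with 5 kb in 60M library 1 and 4 kb in the others. That Bcl6b peak met the interval by 1 base, and the next tallest there (chr11:70033000-70035999) had the same borders in all 4 libraries. Across the series, 72.6% of shared H3K4me3 regions of at least 4 kb had identical borders in all 4 libraries. That share is over merged regions with all their peaks, while the count at the loci takes 1 peak per locus. The 2 are thus only roughly comparable, and the count at these loci is not shown to differ from the background. Borders come in steps of 1000 bp, and shifts below that size were not detectable. The order of the 8 tall peaks by signal was also much the same in each library. Id4 came first, Etv5 seventh and Bcl6b last in all 4. Gfra1, Ret and Nanos2 took places 2 to 4, and Lhx1 and Zbtb16 places 5 and 6. Spearman's rho over the 8 loci was 0.976 between the 60M libraries, 0.952 between the 5M libraries and 0.905 to 0.952 across ages, as a description over loci that share each library.

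**Figure D3:**
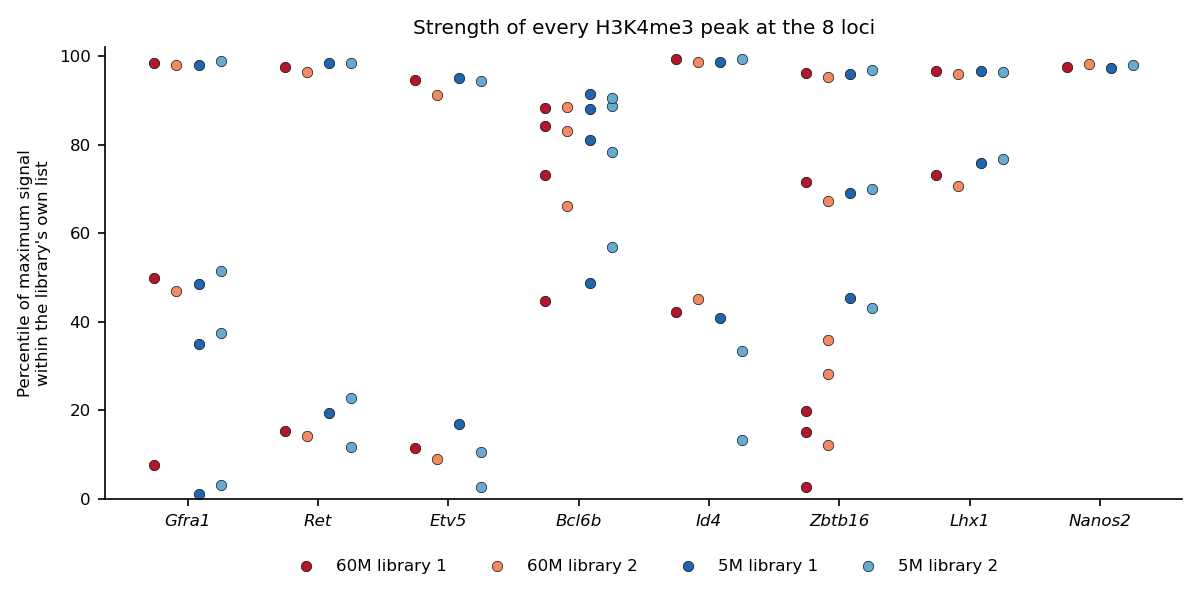
Percentile of maximum signal within the library's own list (vertical axis) for every H3K4me3 peak at each locus, 1 point per peak, with 60M libraries left of 5M libraries. The tallest peak of each locus lies between 88.3 and 99.3, and most other peaks lie below the middle of their list, apart from several at Bcl6b, Lhx1 and Zbtb16 and 1 at Gfra1.

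Merging the 4 H3K4me3 lists gave 24 regions at the 8 loci, and most were listed at both ages. A set of 17 (70.8%) was listed in all 4 libraries, against 64.5% of all 54585 merged regions. A 60M-only pattern, listed in the 60M libraries alone, was shown by 2 regions (8.33%), where 4.46% of all regions were so called. A 5M-only pattern was shown by 1 region (4.17%), against 10.1% of all regions. That count was 4 without 5M library 1 and 2 without 60M library 1, when the other library of that age decided alone. The remaining 4 were listed in a mixed set of libraries. With so few regions these shares are not shown to differ from the background. The 7 regions missing from at least 1 library were weak, at percentiles 1.26 to 37.4 within their lists. Their median was 12.8, taken over the percentiles in each library that listed them. It was near the median of 15.9 for all regions of the series missing from at least 1 library. The 17 regions listed in all 4 had a median of 86.1, also over the percentiles in each library, against a median of 60.0 for all shared regions of the series.

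Both 60M-only regions lay at Zbtb16, on the same side of its tall peak. The nearer one (chr9:48655000-48656999) began 8 kb beyond the tall peak and spanned 2 kb in each 60M library. Its signal peaked at 71.0 and 67.4 in the 60M libraries, while neither 5M library listed it. The farther one (chr9:48668000-48668999) began 21 kb beyond it and measured 1 kb, with a signal of 84.9 and 127.0 in the 60M libraries and no peak in either 5M library. These stood at percentiles 15.1 and 12.2 for the nearer region and 19.8 and 28.3 for the farther one. No other region was listed on that side of the tall peak within the interval, and both regions have no annotation here. In bulk chromatin, a weak mark in many cells and a strong mark in few cells cannot be told apart. When only the upper 75% of each list by signal was kept, 0 of the 8 loci's regions were 60M-only.

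The region listed at 5M only lay at Gfra1 (chr19:58432000-58433999), 93 kb from its tall peak. Neither 60M library listed a peak there, and the 5M libraries listed 2 kb with maxima of 117.5 and 124.5, at percentiles 35.0 and 37.4. Another weak Gfra1 region (chr19:58476000-58476999) was listed in 60M library 1 and both 5M libraries, and not in 60M library 2. Single weak peaks in 5M library 2 alone made up the other 3 mixed regions, 1 each at Ret, Etv5 and Id4. That library has the longest H3K4me3 list of the 4.

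Of the 17 shared regions, 2 covered more bases in both 60M libraries than in both 5M libraries, and 0 covered fewer. Among all shared regions these shares were 7.43% and 2.49%. With so few regions the counts are not shown to differ from the background. The first wider region lay at Zbtb16 (chr9:48455000-48459999), 182 kb from the tall peak on the other side from the 60M-only regions. It covered 5 and 4 kb at 60M, against 3 kb in each 5M library. Its signal maximum was 395.6 and 362.9 at 60M and 331.9 and 328.9 at 5M. Close to it, another Zbtb16 region (chr9:48443000-48444999) covered 1 and 2 kb in the 60M libraries and 2 kb in each 5M library, at percentiles 2.77 and 35.9 at 60M and 45.4 and 43.1 at 5M.

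The other wider region lay at the edge of the Id4 interval (chr13:48340000-48342999), 12 kb from the tall peak. It covered 3 kb in each 60M library, and 2 and 1 kb in the 5M libraries. Its signal maximum was 172.9 and 212.2 at 60M and 140.4 and 110.5 at 5M, on a scale that is not known to match between libraries.

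Summed over each interval, the bases under H3K4me3 peaks were set side by side for each library. Zbtb16 had 14 kb covered in each 60M library and 10 kb in each 5M library. Gfra1 had 8 and 7 kb covered at 60M and 10 kb in each 5M library. Id4 had 7 kb covered in each 60M library and 6 kb in each 5M library. These lengths count again the regions above that were 60M-only, 5M-only or wider at 60M, so they are not a separate observation. At these genes the ages did not overlap, and the test over 2 libraries against 2 could not pass a threshold (p = 0.333, two-sided exact permutation over libraries, the lowest value this design can reach). The share of all loci that separate in this way was not computed, so this is not read as a result about these genes. Lhx1 had 8 kb and Nanos2 4 kb in every library, while Ret and Etv5 each had 6 kb in the 60M libraries and 6 or 7 kb in the 5M libraries.

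**Figure D4:**
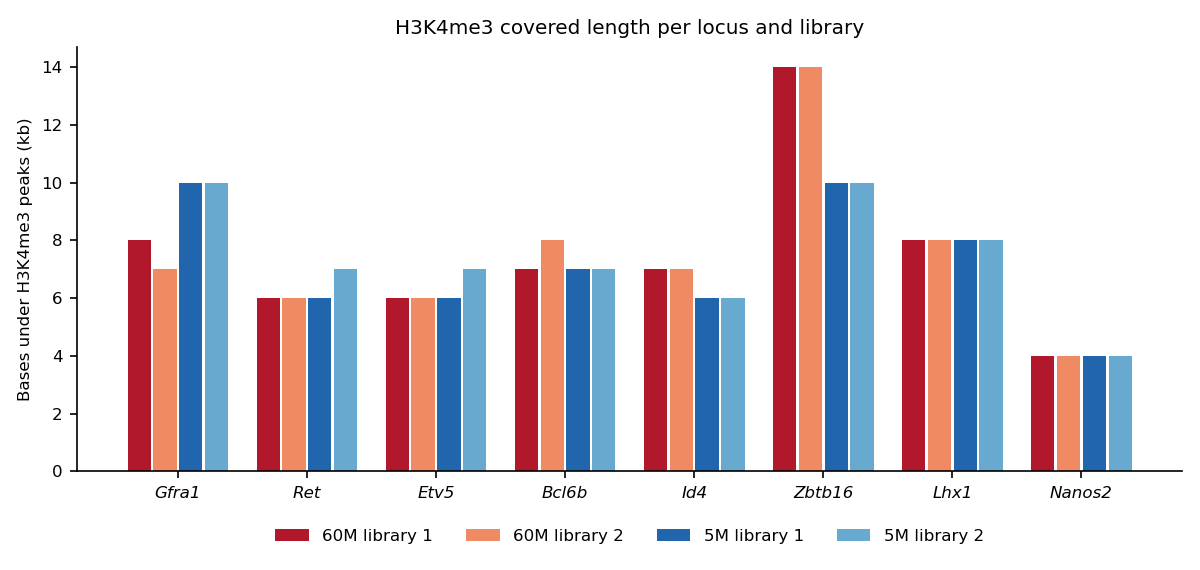
Bases under H3K4me3 peaks within each interval (vertical axis, kb), 1 bar per library, with 60M libraries left of 5M libraries. Zbtb16 shows 14 kb in each 60M library and 10 kb in each 5M library, and Lhx1 and Nanos2 show the same length in every library.

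Over the 8 loci together the covered length was 60.0 kb in each 60M library, against 57.0 and 59.0 kb in the 5M libraries, a difference of 2 kb between the means or 2 bins (p = 0.333 by the same exact permutation). Zbtb16 alone differed by 4 kb, more than this total, while Gfra1 differed by -2.5 kb. The difference was 4 kb when all lists were shortened to the same length and 1 kb without 5M library 1 or with only the upper 75% of each list kept. Covered bases made up 8.05% of the intervals in both 60M libraries and 7.65% and 7.92% in the 5M libraries. Of all chromosomes with peaks, H3K4me3 peaks covered 3.73% and 3.62% at 60M and 3.66% and 3.83% at 5M. The intervals were drawn around genes and the chromosomes were taken whole, so no enrichment is read from these shares.

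H3K27me3 was listed at none of the 8 loci in any of the 4 libraries, so no region there carried both marks. This includes Lhx1, a homeodomain gene with roles in head and kidney development. Across the series, an H3K27me3 peak overlapped 8.19% and 7.97% of the shared H3K4me3 regions in the 60M libraries and 8.57% and 11.3% in the 5M libraries. Of the shared H3K4me3 regions of at least 4 kb, 20.8% carried an H3K27me3 peak in at least 1 library. As most H3K4me3 regions had none, 17 shared regions without H3K27me3 are not shown to stand apart from the rest. Because no region at these loci entered the H3K27me3 calls, there was none to compare with the 4.39% of all H3K27me3 regions that were 60M-only and the 6.02% that were 5M-only.

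The nearest H3K27me3 peaks lay outside the intervals at distances that were steady at some loci and varied at others. Next to Nanos2 the nearest began 63.0 kb from the interval in all 4 libraries (chr7:19648000-19653999 in 60M library 1 and both 5M libraries). It was 6 kb wide with maxima of 58.7 in 60M library 1 and 62.9 and 73.2 in the 5M libraries, against 1 kb and 38.0 in 60M library 2. Next to Gfra1 it lay 38 kb away in all 4 libraries (chr19:58258000-58261999 in all but 5M library 1, where it began at 58260000). The distances ran from 26 to 29 kb at Etv5, 39.0 to 54 kb at Ret, 81.0 to 84.0 kb at Bcl6b and 109 to 112 kb at Id4. At Lhx1 they were 404.0 and 22.0 kb for the 60M libraries and 222.0 and 404.0 kb for the 5M libraries, the nearest being a weak peak that 60M library 2 alone listed. At Zbtb16 they were 36 and 34 kb for the 60M libraries and 107 and 36 kb for the 5M libraries. At Lhx1 the libraries differed within each age, and the distance of 404.0 kb occurred at both ages. At Zbtb16 only 5M library 1 stood apart, and its nearest peak was weak (percentile 2.03).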

How the data were processed

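Peak lists of 8 chromatin immunoprecipitation sequencing libraries were used, 2 for each mark and age, called per library. The submitters' processing notes name CASAVA 1.8.4, Bowtie 1.1.2 and build mm10, and no source used here names the peak caller. On 9 of 20 chromosomes the listed positions run past the mm10 ends (1331 peaks), while 2 peaks on 1 chromosome overhang mm9 by up to 687 bp (lengths from GenomeInfoDb 1.38.1), so positions were read as mm9. They are printed as listed and fall on 1000 bp bins. The deposited lists give a maximum signal, 2 kinds of −log10 p-value (immunoprecipitate alone, or relative to the control), a q-value (at most 0.00097) and a peak width, per the file headers.

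Peaks sharing at least 1 bp were merged over the 4 libraries of a mark. A region present in the pair of 60M libraries and absent from the pair of 5M libraries was called 60M-only, and the opposite pattern 5M-only. Exact permutation tests over libraries (6 arrangements) made no calls. RefSeq promoters (GRCm38.p6) were cut to the 250 bases before the start, and no position was converted between builds. All 8 genes were named, by rule. The genes, intervals and lists were chosen with earlier results of these data known. Further spermatogonial genes and markers of other cells, which had been planned, were not analysed here for want of an annotation of the build. The code for the calls was checked on simulated lists with planted regions that every library of an age listed. That check does not test calls on weak peaks. Python 3.11.15, numpy 2.4.6, pandas 2.3.3 and matplotlib 3.10.9 were used.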

Additional observations from a re-analysis of the deposited data

How the results depend on the processing

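The 60M-only count at the 8 loci was 2 with peaks within 1 kb merged, at equal list lengths, by peak midpoints and with any 1 library left out. It was 3 with intervals widened by 10 kb and 0 in the upper 75% of each list. The 5M-only count of 1 ran from 1 to 4 with 1 library left out, being 4 without 5M library 1 and 2 without 60M library 1, when the other library of that age decided alone, and was 1 under the other settings. The lowest percentile of any tallest peak was 88.3 by signal. It was 70.3 when peaks were ranked by the −log10 p of the immunoprecipitate, and the cause was not tested. Both values belong to the Bcl6b peak that met its interval by 1 base. The covered length difference stayed positive in all settings tried, between 1 and 4 kb, but no setting left out a locus. By locus, the 60M mean minus the 5M mean was 4 kb at Zbtb16, 1 kb at Id4 and 0.5 kb at Bcl6b. It was -2.5 kb at Gfra1, -0.5 kb at each of Ret and Etv5, and 0 at Lhx1 and Nanos2. H3K27me3 counts, lengths and regions with both marks were 0 in all settings tried. With the replicate numbers as a block the H3K4me3 length difference was 2 kb (exact sign-flip permutation over 2 pairs, p = 0.5, the smallest 2 pairs allow). Deviations of same-numbered libraries from their group means hardly correlated across shared regions (0.00681 for H3K4me3, -0.0435 for H3K27me3), so the numbers are not shown to pair the libraries. Read depth is unknown, and the 60M-only count rests on weak peaks.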

Other observations

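Within 15 kb outside the intervals, 8 of 10 further H3K4me3 regions were listed in all 4 libraries, against 64.5% of all merged regions. A 60M-only pattern was shown by 1 and a 5M-only pattern by 1, against 4.46% and 10.1% of all regions. With so few regions these counts are not shown to differ from the background. A further weak region beyond the Zbtb16 tall peak (chr9:48673000-48673999) was listed in both 60M libraries, with maxima of 55.6 and 56.1, and in neither 5M library. Beside Nanos2, a region at chr7:19599000-19599999 was listed in neither 60M library and reached 153.8 and 150.5 in the 5M libraries. Its neighbour (chr7:19597000-19597999) was listed in all 4, with maxima of 452.0 and 433.1 at 60M and 328.7 and 316.4 at 5M. Another region beside Nanos2 (chr7:19586000-19590999) covered 4 kb in both 60M libraries and 5 kb in both 5M libraries. Across the series, 2.49% of shared regions covered fewer bases in both 60M libraries than in both 5M libraries. Beside Etv5, a region of 2 kb (chr16:22456000-22457999) reached 232.3 and 220.6 at 60M and 107.2 and 111.2 at 5M, at percentiles 52.7 and 46.8 at 60M and 31.9 and 33.7 at 5M. These regions were picked after their values were seen, and no source used here gives the scale of the signal between libraries. The share of all regions whose signals or percentiles separate by age was not computed.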
